A study of Mus musculus with 8 samples.

Results

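The comparison set 2 libraries of purified heart muscle cells from litter 1, 1 male and 1 female, against the 4 libraries from litters 2 and 4, 2 male and 2 female. These are 6 of the 8 libraries of the series. The 2 libraries of litter 3 were left out of the comparison, and their values are given beside it only where stated. Litters were selected on earlier results from these same libraries, so the differences below, with their calls and counts, describe how litter 1 departed from litters 2 and 4 and are not an independent test of it. All pups were C57BL6/J mice at postnatal day 2, each library came from 1 heart, and no treatment or genetic change was listed. Both pups of a litter share a mother and a birth. The groups therefore hold 1 litter against 2, and p-values measure only the spread between these libraries.

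Heart muscle cells still divide at birth in mice and withdraw from the cell cycle during the first days of life. Over the same days they exchange fetal isoforms of the contractile apparatus for adult ones, change from glucose and lactate towards fatty acids as fuel, and leave the low oxygen of the womb. Genes of the late cell cycle (G2 phase and mitosis) are known to be switched on together, in part through a short promoter element called the cell cycle genes homology region (letters TTTGAA) and through CCAAT boxes, which bind the factor NF-Y.

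Read depth was similar in both groups, at 24910243 and 24250715 counts in litter 1 and between 18849002 and 24547290 in litters 2 and 4. Mitochondrial transcripts made up 14.2% and 13.4% of counts in litter 1, and 14.2% and 14.5% in litter 2. They reached 18.5% and 15.2% in the male and female pups of litter 4. The summed level of 15 cardiomyocyte markers was 106300 and 109200 CPM (a gene's reads as a share of all counted reads, on a fixed scale) in litter 1 and between 101200 and 115200 CPM in the other 4 libraries, so these markers were abundant in all 6. In a principal component analysis of all 8 libraries the first component took 38.4% of the variance and held litter 3 at 39.3 and 43.4, while the other 6 lay between -28.8 and 2.17.

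Of 48440 entries in the count table, 14252 had enough counts to be tested. With edgeR's quasi-likelihood test and sex as a covariate, 0 genes passed an adjusted p of 0.05, that is 0% of those tested, and the smallest adjusted p was 0.111. At an unadjusted p under 0.05 the test gave 880 genes higher in litter 1 (6.17%) and 798 lower (5.6%). The spread in this test contains the difference between litters 2 and 4, which was itself large. The median absolute log2 difference over all genes was 0.13 between litters 1 and 2, 0.19 between litters 1 and 4, and 0.16 between litters 2 and 4.

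A fit with a separate term for each litter over all 8 libraries takes its spread from within litters only, and with it edgeR called 808 genes, 512 higher in litter 1 (3.59%) and 296 lower (2.08%). Those calls say that litter 1 differed from litters 2 and 4 by more than pups of 1 litter differed after allowing for sex, and not that it differed by more than litters do. DESeq2 with sex and litter 1 as terms called 143 genes, 86 higher and 57 lower, of which 142 were also among the 808. Without any model, both libraries of litter 1 lay above all 4 others for 1813 genes (12.7%) and below them for 1594 (11.2%). Where a gene is said below to be called, the call is that of the fit with a term for each litter, and it was lost in the test with sex alone.

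Genes of G2 phase and mitosis were the group that stood highest in litter 1. All 34 genes of the list were tested, and all 34 were higher in both pups of litter 1 than in any pup of litters 2 and 4, where 12.7% of all genes were. Their median log2 difference was 0.79, with a range from 0.44 for Cenpa to 1.09 for Hmmr and Aspm, against a median of -0.003 over all genes. The fit with a term for each litter called 33 of the 34, against 3.59% of all genes, and the exception was Aurkb. The 2 comparisons with single litters share the libraries of litter 1 and gave medians of 0.63 against litter 2 and 1.00 against litter 4.

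**Figure D1:**
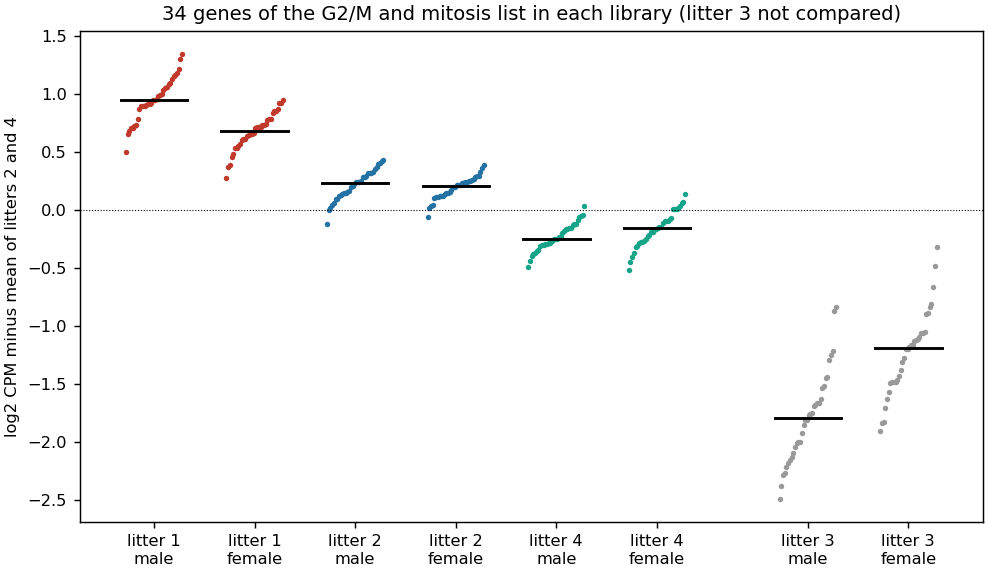
Each point is 1 of the 34 genes of the G2/M and mitosis list in 1 library, as log2 CPM minus the gene's mean in litters 2 and 4, and black bars are medians over genes. Medians were 0.95 and 0.68 in litter 1, 0.23 and 0.21 in litter 2, -0.25 and -0.16 in litter 4, and -1.79 and -1.19 in litter 3, which was not part of the comparison.

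The promoters of these genes were read from RefSeq on build GRCm38.p6, from 250 bases before to 50 bases after the gene's start, and 28 of the 34 had an entry. TTTGAA or its reverse complement TTCAAA was present in 22 of the 28 (78.6%), against 18.1% of all 27025 RefSeq promoters and 11.5% of the 10126 tested genes with an entry. CCAAT or its reverse complement ATTGG was present in 22 (78.6%), against 37.9% and 38.6%, and both motifs in 19 (67.9%), against 7.1% and 5.0%. In 20 of the 22 promoters the nearest TTTGAA lay within 50 bases of the start. The 4 promoters below belong to genes that stood high in litter 1, and show CCAAT boxes upstream of the TTTGAA or TTCAAA nearest the start. Capitals mark both motifs on either strand, and each sequence runs 5′ to 3′ on the gene's own strand, which is minus for Cenpf (chr1:189688037-189688336), Top2a (chr11:99024140-99024439) and Hmmr (chr11:40733388-40733687) and plus for Prc1 (chr7:80294201-80294500).
Cenpf: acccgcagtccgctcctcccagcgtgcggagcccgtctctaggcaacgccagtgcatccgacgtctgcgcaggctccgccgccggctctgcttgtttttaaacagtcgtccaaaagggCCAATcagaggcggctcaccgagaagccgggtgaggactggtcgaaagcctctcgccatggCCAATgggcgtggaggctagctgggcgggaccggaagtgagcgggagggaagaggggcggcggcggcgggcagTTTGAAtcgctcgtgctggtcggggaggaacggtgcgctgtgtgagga
Top2a: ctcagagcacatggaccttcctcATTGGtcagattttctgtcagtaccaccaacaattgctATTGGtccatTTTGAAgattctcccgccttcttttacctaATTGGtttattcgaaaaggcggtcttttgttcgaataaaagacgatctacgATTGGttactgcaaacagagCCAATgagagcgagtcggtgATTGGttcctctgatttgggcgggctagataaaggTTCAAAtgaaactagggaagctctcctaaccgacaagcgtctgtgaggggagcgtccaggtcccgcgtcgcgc
Hmmr: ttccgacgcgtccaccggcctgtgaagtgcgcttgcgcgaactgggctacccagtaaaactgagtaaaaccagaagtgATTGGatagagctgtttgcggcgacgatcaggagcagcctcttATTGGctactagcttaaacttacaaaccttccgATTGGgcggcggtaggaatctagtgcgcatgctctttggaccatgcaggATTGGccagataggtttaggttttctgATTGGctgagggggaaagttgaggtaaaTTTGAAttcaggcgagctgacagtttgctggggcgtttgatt
Prc1: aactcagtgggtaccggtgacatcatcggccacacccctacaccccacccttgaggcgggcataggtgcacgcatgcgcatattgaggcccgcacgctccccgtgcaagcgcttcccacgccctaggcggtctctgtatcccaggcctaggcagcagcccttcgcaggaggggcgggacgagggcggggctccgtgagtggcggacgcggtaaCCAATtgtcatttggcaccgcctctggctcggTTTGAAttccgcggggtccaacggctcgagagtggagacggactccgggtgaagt

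A match is a description of letters and not a site that was measured. The gene list was drawn up from genes known to act in mitosis, many of which are known carriers of these elements. Among the 512 genes called higher in litter 1, TTTGAA was found in 28.6% of 385 promoters, and in 24.6% of 357 without the G2/M list, a set that still holds mitotic genes such as Nek2, Casc5, Kif4 and Arhgap11a. Among the 296 called lower it was found in 11.1% of 226. In the list of G1/S and DNA replication genes, whose members act earlier in the cycle, TTTGAA was found in 8.3% and CCAAT in 62.5% of 24 promoters.

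Cenpf encodes a kinetochore protein that accumulates in G2 phase. Given as male and then female, here and below, it was at 51.3 and 43.3 CPM in litter 1, 28.5 and 25.9 in litter 2, and 23.3 and 19.1 in litter 4. The groups did not overlap, and the log2 difference was 0.96 (SE 0.13). Top2a, the topoisomerase that untangles sister chromosomes, was at 104 and 85.3 CPM in litter 1, 55.7 and 53.1 in litter 2, and 40.6 and 43.1 in litter 4, a log2 difference of 0.97 (SE 0.14). Mki67, the proliferation marker that coats mitotic chromosomes, was at 127.8 and 108.6 CPM, against 67.7 and 79.2 in litter 2 and 54.5 and 60.6 in litter 4. In each of these 3 genes the male of litter 1 was the highest of the 6 libraries and litter 4 held the lowest.

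The 3 list members with the largest differences act at the spindle or the kinetochore, and in each litter 1 had the highest mean of the 3 litters compared and litter 4 the lowest. Hmmr, a spindle assembly protein, was at 38.6 and 29.8 CPM in litter 1, 20.6 and 16.8 in litter 2, and 16.0 and 10.9 in litter 4. Aspm, which organizes spindle poles, was at 32.1 and 23.9 CPM, then 16.95 and 15.3, then 9.51 and 10.1. Cenpe, a kinetochore motor, was at 23.6 and 19.5 CPM, then 12.7 and 11.8, then 8.29 and 8.50. Log2 differences were 1.09 (SE 0.16), 1.09 (SE 0.22) and 1.06 (SE 0.18). Nek2, a centrosome kinase, Casc5, a kinetochore scaffold, and the kinesins Kif4 and Kif11 differed by between 0.98 and 1.14.

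Anln, Prc1 and Ect2, also members of the list, act in cytokinesis, the step that separates daughter cells. Anln, a scaffold of the contractile ring, was at 45.2 and 36.9 CPM in litter 1, 26.7 and 22.8 in litter 2, and 17.96 and 15.2 in litter 4. Prc1, which bundles the central spindle, was at 53.3 and 44.1 CPM, then 31.3 and 27.8, then 20.8 and 23.9. Ect2, which activates RhoA at the furrow, was at 22.3 and 18.1 CPM, then 14.8 and 11.3, then 10.4 and 11.2. None of the 3 overlapped between the groups, and log2 differences were 0.99 (SE 0.17), 0.90 (SE 0.15) and 0.75 (SE 0.14).

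Among regulators, the mitotic kinase Cdk1 was at 35.2 and 28.8 CPM in litter 1 and between 16.0 and 20.6 in the other 4 libraries. Its partner Ccnb2 was at 23.4 and 23.6 CPM in litter 1, 17.8 and 16.4 in litter 2, and 11.2 and 12.9 in litter 4. Foxm1, a transcription factor of the G2/M genes, was at 19.7 and 16.8 CPM, then 13.04 and 14.4, then 10.1 and 11.1. Aurkb, the only member not called, was at 8.97 and 5.78 CPM in litter 1 and reached 5.67 in the female of litter 2, so its groups were separated by a narrow margin.

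Genes of G1/S and DNA replication stood higher by a smaller amount. All 30 were tested, with a median log2 difference of 0.37, 18 did not overlap and lay higher in litter 1 (12.7% of all genes did), and 7 were called higher (3.59%). Rrm2, a subunit of the enzyme that makes deoxyribonucleotides, was at 69.0 and 57.5 CPM in litter 1, 37.2 and 46.7 in litter 2, and 42.1 and 41.1 in litter 4. Its partner Rrm1 was at 104.6 and 91.8 CPM in litter 1 and between 61.6 and 78.0 in the others. The S-phase genes Mcm2 (log2 difference 0.39) and Pcna (0.32) did not overlap but were not called, and the groups overlapped for Mcm7.

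Cyclin-dependent kinase inhibitors and p53 targets did not move in 1 direction. Of 17 tested, 3 were called higher (3.59% of all genes were), 1 was called lower (2.08%) and the median log2 difference was 0.01. Cdkn1c, the imprinted inhibitor p57, was lower, at 5.91 and 6.32 CPM in litter 1 and between 8.62 and 11.5 in the other libraries. Cdkn1a, the inhibitor p21, was at 23.0 and 22.1 CPM in litter 1 and between 15.8 and 20.0 in the others. Gtse1, which is itself active in G2 phase, and Cdkn2c were the other called members, with log2 differences of 0.72 and 0.54.

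**Figure D2:**
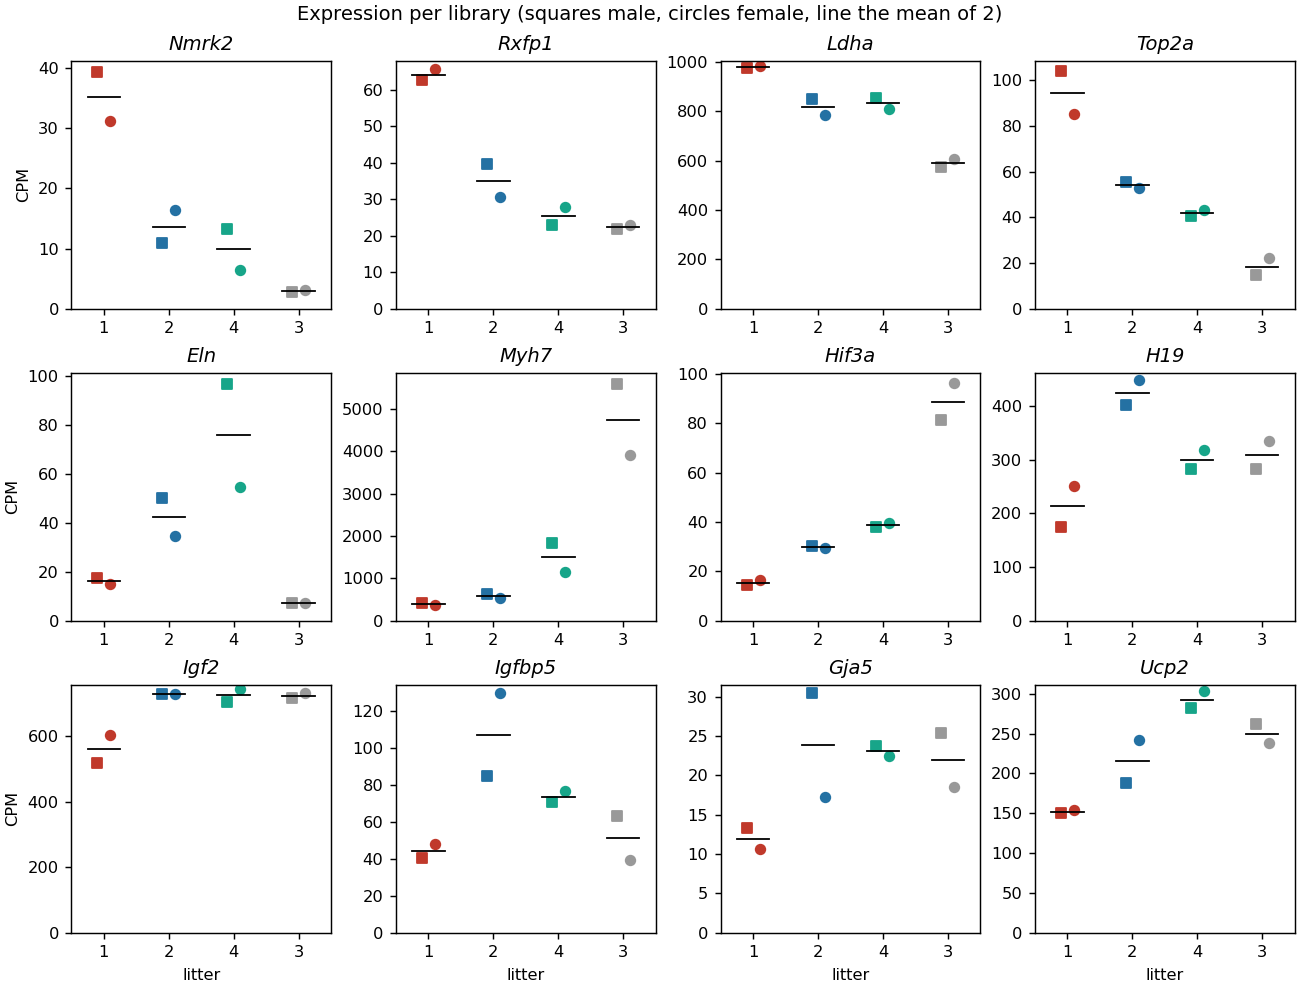
CPM of 12 genes in each library (squares male, circles female, black line the mean of the 2), with litters in the order 1, 2, 4 and 3. Nmrk2, Rxfp1, Ldha and Top2a were highest in litter 1, and Myh7, Hif3a, H19, Igf2, Gja5 and Ucp2 were lowest in it, while Eln was lower still in litter 3 and Igfbp5 was lower in litter 1 than in litters 2 and 4 and overlapped with litter 3.

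Outside the cell cycle, the largest positive difference among the genes named was that of Nmrk2, a nicotinamide riboside kinase of muscle that feeds the synthesis of NAD. It was at 39.3 and 31.2 CPM in litter 1, 10.9 and 16.3 in litter 2, and 13.3 and 6.48 in litter 4. The log2 difference was 1.58 (SE 0.27) and the lowest pup of litter 1 lay well above the highest of the others. Rxfp1, the receptor for the hormone relaxin, was at 62.7 and 65.7 CPM, then 39.6 and 30.6, then 23.0 and 28.01, a log2 difference of 1.08 (SE 0.17). For Nmrk2, 9.7% of transcript windows of 100 bases are shared with the neighbour Atcayos, and for Rxfp1 none are.

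Among 15 cardiomyocyte markers the median log2 difference was -0.01. Of these, 5 lay higher in litter 1 without overlap (12.7% of all genes did) and 1 lower (11.2%), and 2 were called higher (3.59%). These were the giant spring protein Ttn, with a log2 difference of 0.25 (SE 0.10), and the calcium release channel Ryr2, with 0.26 (SE 0.13). The adult myosin Myh6 was at 24290 and 26110 CPM in litter 1 and between 20180 and 29130 CPM in the others, so the groups overlapped.

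Myh7, the fetal slow myosin of the ventricle, was low in litter 1 at 411.2 and 380 CPM. It was at 641.1 and 534.6 CPM in litter 2, and at 1842 and 1158 in litter 4. The groups did not overlap and the log2 difference was -1.37 (SE 0.42), but most of it came from litter 4, since the difference was -0.57 against litter 2 and -1.89 against litter 4. Litter 3 was higher than all, at 5587 and 3910 CPM. Of the transcript windows of Myh7, 13.9% are shared with other genes, Myh6 among them, so a part of its reads may have been counted elsewhere.

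Other fetal isoforms differed in direction. Tnni1, the slow skeletal troponin I of the fetal heart, overlapped between the groups, with a log2 difference of -0.20 (SE 0.14). The smooth muscle myosin light chain Myl9 and the tropomyosin Tpm2 were called higher, by 0.31 (SE 0.09) and 0.37 (SE 0.13). Of the 15 genes of the fetal and stress list, 2 lay higher without overlap (12.7% of all genes did) and 3 lower (11.2%), and 2 were called higher (3.59%) and 1 lower (2.08%). The lowest was the smooth muscle actin Actg2, not called, at 0.0402 and 0.331 CPM in litter 1 and between 0.54 and 0.989 in the others.

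Fuel genes showed small differences that were steady across pups. In the list of glucose transport and glycolysis, 8 of 22 genes lay higher in litter 1 without overlap (12.7% of all genes did) and 1 lower (11.2%), 5 were called higher (3.59%), and the median log2 difference was 0.11. Ldha, which interconverts pyruvate and lactate, was at 976.5 and 983.6 CPM in litter 1, 848.4 and 785 in litter 2, and 853.5 and 811.7 in litter 4. Slc16a3, a lactate exporter, was at 9.33 and 9.50 CPM in litter 1 and between 5.89 and 7.82 in the others. Pgk1, a glycolytic kinase, differed by 0.34 (SE 0.09), but 67.0% of its transcript windows are shared with other genes.

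Oxct1, which commits ketone bodies to use as fuel, was at 413 and 391.5 CPM in litter 1, 336.3 and 258.9 in litter 2, and 197 and 218.5 in litter 4, a log2 difference of 0.67 (SE 0.18). The groups did not overlap, and the order of litters was 1, 2 and 4. In the list of fatty acid uptake and oxidation the median of 30 genes was -0.02.

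In the list of the TCA cycle and ketone use, 10 of 20 genes lay higher in litter 1 without overlap (12.7% of all genes did) and 1 lower (11.2%). Only Oxct1 (called higher, as were 3.59% of all genes) and Pdk2 (called lower, 2.08%), an inhibitor of pyruvate dehydrogenase, were called. Of 30 nuclear genes of the respiratory chain, 10 lay higher without overlap, 0 lower, and 3 were called higher, beside the same shares of all genes, namely Cycs, Sdhb and Ndufs1. Ndufs1, a subunit of complex I, was at 868.9 and 846.5 CPM in litter 1 and between 678.7 and 792.6 in the others. None of the 10 mitochondrially encoded messengers tested and none of 30 cytosolic ribosomal protein genes lay outside the range of litters 2 and 4 in both pups.

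Genes that respond to oxygen and hormones were read next. Hif3a, an inhibitory member of the hypoxia-inducible factors, was at 14.5 and 16.4 CPM in litter 1, 30.2 and 29.5 in litter 2, and 38.2 and 39.7 in litter 4. The log2 difference was -1.15 (SE 0.15), and male and female of each litter lay close together. The hypoxia list as a whole had 3 members called higher (3.59% of all genes were) and 2 lower (2.08%) among 22, with a median of 0.04. Hif1a overlapped between the groups.

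Ucp2, a carrier of the mitochondrial inner membrane, was at 149.8 and 154.6 CPM in litter 1, 188.4 and 241.6 in litter 2, and 282 and 303.3 in litter 4. The clock output gene Dbp was at 29.0 and 25.8 CPM, then 34.7 and 40.1, then 49.2 and 48.6. Tsc22d3, a glucocorticoid-induced gene, was at 67.9 and 66.4 CPM in litter 1 and between 78.1 and 85.5 in the others. All 3 were lower in litter 1 without overlap. In the list of glucocorticoid and FoxO targets, 4 of 19 genes lay lower without overlap (11.2% of all genes did) and 2 higher (12.7%). Of these 19, 2 were called lower (2.08%) and 1 higher (3.59%), with a median log2 difference of -0.03. In the thyroid hormone list, which holds Ucp2, 3 of 14 genes lay lower and 2 higher without overlap. There 2 were called lower and 0 higher, beside the same shares, and the median was 0.01. In the circadian list 6 of 20 genes lay lower without overlap (11.2% of all genes did) and 1, Clock, higher (12.7%), and 1 was called lower, Dbp (2.08%), and 1 higher, Clock (3.59%).

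Imprinted genes that control growth divided into members that lay lower in litter 1 and members that overlapped. Of 19 tested, 10 lay below all 4 other libraries, against 11.2% of all genes, 0 lay above them, and 5 were called lower, against 2.08% of all genes. The median log2 difference was -0.25. H19, a maternally expressed long noncoding RNA, was at 174.2 and 251.9 CPM in litter 1, 402.3 and 447.7 in litter 2, and 282.2 and 317.5 in litter 4. Its paternally expressed neighbour Igf2, the fetal growth factor, was at 517.2 and 605.4 CPM in litter 1, 728.2 and 727.7 in litter 2, and 705.8 and 745.1 in litter 4. Both lay lower in litter 1 in both pups, with log2 differences of -0.78 (SE 0.18) and -0.38 (SE 0.09), and 75.7% of the transcript windows of Igf2 are shared with the overlapping entry Gm49394.

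In the list of IGF and insulin signalling, with 17 genes tested and a median of -0.03, 4 lay lower without overlap (11.2% of all genes did) and 1 higher (12.7%), and 3 were called lower (2.08%), namely Igf2, Igfbp5 and Igfbp4. The latter pair are binding proteins that hold insulin-like growth factors outside cells, and for Igfbp2, Igfbp3 and Igfbp7 the groups overlapped. Igfbp5 was at 40.3 and 47.8 CPM in litter 1, 84.7 and 129.3 in litter 2, and 70.6 and 76.6 in litter 4. Igfbp4 was at 7.68 and 11.7 CPM, then 21.3 and 20.9, then 17.6 and 15.3. Log2 differences were -1.03 (SE 0.19) and -0.96 (SE 0.20), and the groups did not overlap for either. For both, litter 2 lay farther from litter 1 than litter 4 did. The receptor Igf2r, which clears Igf2, overlapped between the groups.

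Genes of the extracellular matrix divided into members that lay lower in litter 1 and a larger number that overlapped. Of 31 tested, 9 lay below all 4 other libraries (11.2% of all genes did), 0 lay above, 9 were called lower (2.08%), and the median log2 difference was -0.39, or -0.63 with the litter 1 female left out. The median was -0.66 against litter 2 alone and -0.23 against litter 4 alone. By library, and relative to the mean of litters 2 and 4, the list's median was -0.21 and -0.53 in litter 1, 0.41 and 0.05 in litter 2, and 0.06 and -0.53 in litter 4, so the female of litter 4 was about as low as her counterpart in litter 1. Eln, which encodes elastin, was at 17.7 and 14.9 CPM in litter 1, 50.2 and 34.5 in litter 2, and 96.7 and 54.6 in litter 4, a log2 difference of -1.82 (SE 0.29). Lox, which crosslinks elastin and collagen, was at 1.01 and 0.826 CPM in litter 1 and between 1.68 and 2.98 in the others. Sparc, a collagen-binding protein, was at 149.7 and 149.4 CPM in litter 1 and between 179 and 230.1 in the others. The basement membrane collagens Col4a1 and Col4a2 overlapped, with log2 differences of -0.02 and 0.03.

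Markers of fibroblasts and of mural cells, the cells that wrap vessels, were read beside the matrix genes, and 5 fibroblast markers (Fbln1, Col1a1, Col1a2, Col3a1 and Col5a1) also stand in the matrix list. Of 16 fibroblast markers 5 lay lower without overlap (11.2% of all genes did), 1 higher (12.7%), and 4 were called lower (2.08%), with a median of -0.31. Their summed level was 543.5 and 505.3 CPM in litter 1 and 716.6, 631.4, 709.5 and 541.3 CPM in litters 2 and 4. Of 11 mural markers 4 lay lower without overlap and 2 were called lower, Tagln and Mcam, beside the same shares of all genes, with a median of -0.42, or -0.21 with the litter 2 female left out. Their summed level was 1401 and 1462 CPM in litter 1 against 1485 to 1598 CPM. In these bulk libraries fewer cells of a type and less RNA per cell cannot be told apart, and the part of such cells in the matrix differences was not tested.

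Atrial markers had a median log2 difference of -0.73 over 15 genes, 4 lay lower without overlap (11.2% of all genes did), and 4 were called lower (2.08%). Gja5, the connexin of atria and conduction tissue, was at 13.3 and 10.6 CPM in litter 1, 30.5 and 17.2 in litter 2, and 23.8 and 22.5 in litter 4. Clu, a secreted chaperone, was at 107.9 and 109.1 CPM in litter 1 and between 150.2 and 202.6 in the others. The defining atrial genes overlapped. Myl7, the atrial myosin light chain, was at 41.5 and 24.7 CPM in litter 1, 151.9 and 6.97 in litter 2, and 58.9 and 42.4 in litter 4. The male and female of litter 2 were thus the highest and the lowest of the 6 libraries. The list's median was -0.23 without the male of litter 1, and -0.99 without its female.

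Ion channels and ventricular regulators gave a few more called genes. Of 18 cardiac channel genes 7 lay lower without overlap (11.2% of all genes did), 1 higher (12.7%), and 3 were called lower (2.08%). Cacna1d, a calcium channel of pacemaker and atrial cells, was at 18.01 and 18.01 CPM in litter 1, 23.8 and 23.0 in litter 2, and 30.3 and 28.8 in litter 4. Kcnq1 and Kcnj5, potassium channels, had log2 differences of -0.33 (SE 0.09) and -0.36 (SE 0.12). The list used for ventricular markers held 11 genes, Mybphl among them, and whether each is confined to ventricles was not tested. With a median of 0.01 over the list, 2 lay lower without overlap (11.2% of all genes did) and the same 2 were called lower (2.08%). These were the transcription factors Hey2 and Irx4, with log2 differences of -0.41 (SE 0.12) and -0.27 (SE 0.09), while the ventricular light chain Myl2 overlapped.

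Endothelial and endocardial markers split litter 1 between its pups. Their summed level in litter 1 was 40.8 CPM for the male and 139.8 for the female. It was 200.2 and 316.9 CPM in litter 2 and 81.0 and 59.0 in litter 4. The median log2 difference over 18 genes was -0.96, but only Plvap lay lower without overlap (11.2% of all genes did), and 2 were called lower (2.08%), Plvap and Npr3. That median was -1.79 with the litter 1 female left out and -0.25 with the litter 2 female left out, and it was 0.37 against litter 4 alone. Markers of white blood cells were low. Ptprc, the marker of all white blood cells, and Cd163, of tissue macrophages, had no count in any of the 6 libraries, and 3 of 12 macrophage markers were abundant enough to be tested. Of those 3, 1, Cd68, lay higher in litter 1 without overlap (12.7% of all genes did), 0 lay lower, and 0 were called. The 12 summed to 8.56 and 9.21 CPM in litter 1 and to between 5.85 and 9.72 CPM in the others.

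Among abundant genes the differences were smaller. Eef2, the elongation factor of translation, was at 1722 and 1809 CPM in litter 1, 2000 and 1922 in litter 2, and 2418 and 2693 in litter 4, a log2 difference of -0.35 (SE 0.14). Sptbn1, a spectrin of the membrane skeleton, had a log2 difference of 0.31 (SE 0.12). The mitochondrial ribosomal RNA mt-Rnr1 was at 819 and 974.8 CPM in litter 1, 1029 and 1088 in litter 2, and 1937 and 1616 in litter 4, which also had the highest shares of mitochondrial counts, and the part of that share was not tested. Of the remaining genes lowest in litter 1, Palm, Mgp, Tagln, Dbn1 and Kank3 had log2 differences between -1.25 and -0.98. Transcript windows are shared with other genes for 33.2% of Tagln, 25.4% of Dbp, 24.7% of Cycs, 21.8% of Cdkn1c, 20.3% of Gja5 and 10.8% of Oxct1, and in part for Kif4, Pcna and Mcm7, so those values are less certain.

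Erythroid markers summed to 186.7 and 255.2 CPM in litter 1 and to between 126.2 and 272.6 CPM in the others, and the globin genes overlapped.

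**Figure D3:**
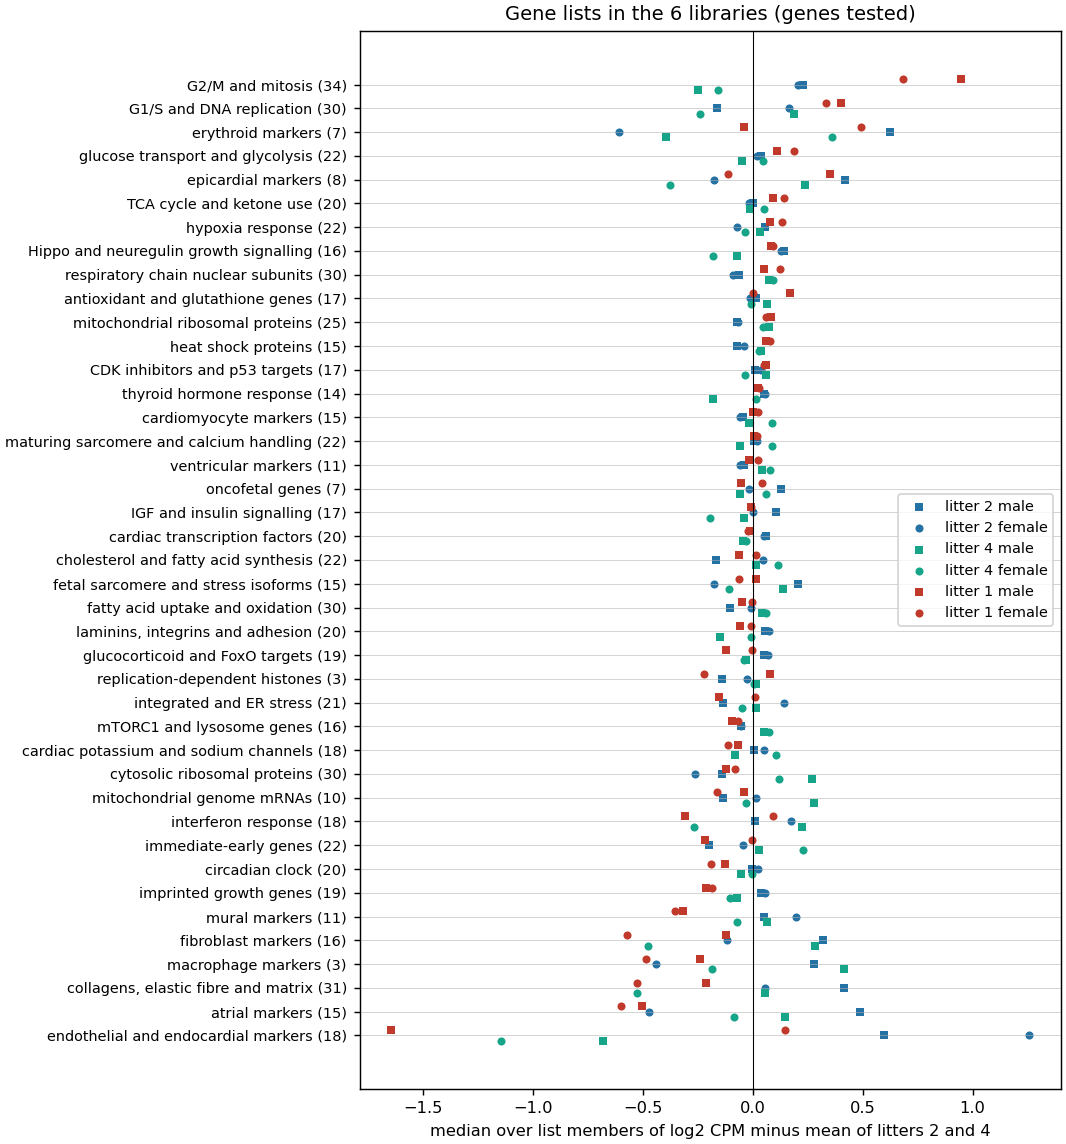
For each gene list the points give the median over its tested members of log2 CPM minus the mean of litters 2 and 4, in each of the 6 libraries (red litter 1, blue litter 2, green litter 4, squares male, circles female, litters set apart vertically for sight). Both red points of the G2/M list, at 0.95 and 0.68, lie to the right of the other 4, while those of the endothelial list lie on both sides of 0.

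The male and the female of litter 1 could be read separately, since the male difference and the female difference share no library. Across all 14252 genes the 2 differences had a Pearson correlation of 0.38 and a Spearman correlation of 0.44, where genes are not independent replicates and both pups share a litter. Of 144 genes at least 1 log2 unit higher in the male of litter 1, 108 (75%) were also higher in the female, with a median of 0.51, and 12 of the 144 were G2/M genes. Of 356 genes at least 1 log2 unit lower in the male, 239 (67.1%) were lower in the female, with a median of -0.19. Over all genes 51.4% lay above 0 in the females.

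**Figure D4:**
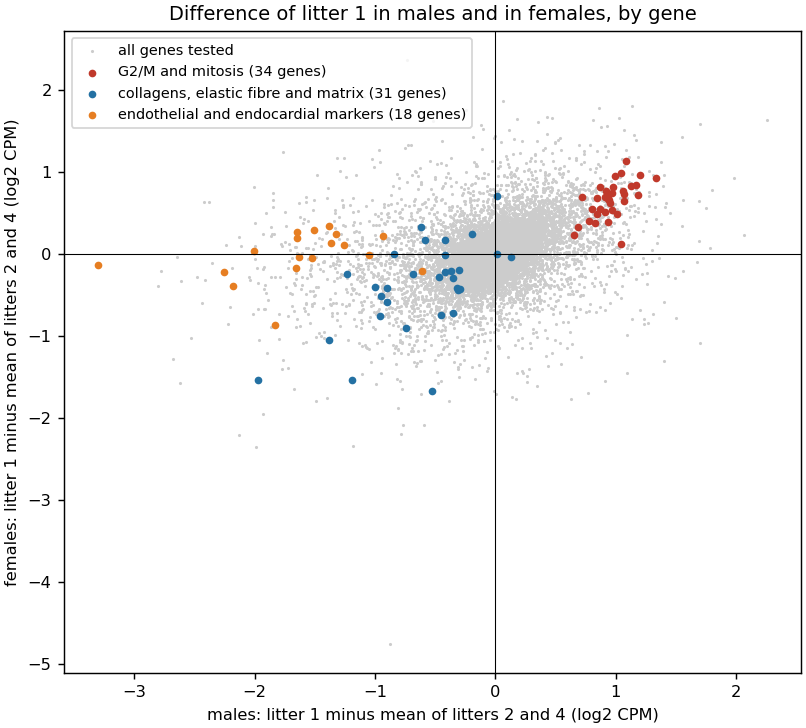
Each point is 1 gene, with the log2 difference of the litter 1 male from the males of litters 2 and 4 on the horizontal axis and the same for females on the vertical axis. All 34 G2/M genes (red) lie above 0 on both axes, matrix genes (blue) lie mostly below 0 on both, and the 18 endothelial markers (orange) all lie below 0 in the males, with a female median of 0.02.

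With edgeR's interaction of sex and litter 1, 0 genes passed an adjusted p of 0.05, the smallest adjusted p was 1, 73 had an unadjusted p under 0.05, and DESeq2 also called 0. The G2/M list had a median of 0.95 in males and 0.68 in females. Slc15a2, a peptide transporter, had the largest negative log2 difference of the genes named, -2.28 (SE 0.74), and differed between the pups. In litter 1 it was at 3.62 CPM in the male and 0.248 CPM in the female, the latter from 6 counts, at 3.70 and 8.99 in litter 2, and at 12.2 and 9.13 in litter 4. The male of litter 1 was thus almost level with the male of litter 2.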

How the data were processed

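Counts of reads per gene symbol were deposited by the authors as 1 table with 8 columns, 1 per library. Per the submitters' processing notes, reads were aligned with STAR 2.7.3a and the build was mm10. The counting program, the annotation and whether counting used strand are not given in the sources used here. Per the labels' protocols the libraries came from a stranded total RNA kit, while the labels list the molecule as poly(A) RNA, a conflict that was not settled. Antisense and overlapping genes are therefore uncertain.

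Genes were filtered with filterByExpr on litter 1 against the rest, and libraries were scaled by TMM. The test was edgeR's quasi-likelihood F test with sex as covariate over 6 libraries, with 3 residual degrees of freedom and Benjamini-Hochberg adjustment at 0.05. CPM values were scaled by TMM over all 8 libraries, and log2 CPM used a prior count of 2. SE is the size of the log2 difference divided by the square root of F. Litter 3 entered the CPM scaling, the principal components and the fit with a term for each litter, whose 808 calls use the spread within litters.

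The litters, the gene lists and the tests were chosen with earlier results of these data known. The rule for naming genes asked for a call, a mean of at least 5 CPM, no overlap between the groups and a symbol that is not a predicted name. It took the 12 largest differences and the 5 most abundant genes in each direction, and up to 4 called and 3 uncalled members of each list. As the test with sex alone called 0 genes, the rule was applied, after seeing the data, to the 808 calls. Mki67, Prc1, Ect2, Cdk1, Ccnb2, Foxm1, Sparc and Cenpa were named from their lists after their values were seen. So were Actg2, Igfbp2, Igfbp3, Igfbp7, Phgdh, Shmt2, Ptprc and Cd163, which the rule did not take. Some named genes are not reported here.

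Sequence sharing was counted in windows of 100 bases along the longest transcript in GENCODE M21, as the percent also present in transcripts of other genes. Promoters of 300 bases came from RefSeq on GRCm38.p6. Alternatives covered scaling, filters, depth, the sex term, the litter terms, DESeq2, limma with litter as a random block or on litter means, and leaving out each library. Scripts were tested on simulated data. R 4.3.3, edgeR 4.0.16, limma 3.58.1 and DESeq2 1.42.0 were used.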

Additional observations from a re-analysis of the deposited data

Results flagged for a closer look

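Of 211 values checked in the 4 libraries of litters 2 and 4, 2 had 1 library far from the other 3, where chance alone would give about 10.6. Cdkn2c was at 19.92 CPM in the female of litter 2 and between 14.09 and 14.79 CPM in the other 3. Atp2a2, the calcium pump of the sarcoplasmic reticulum, was at 8015 CPM in the male of litter 4 and between 9385 and 9643 CPM in the other 3.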

How the results depend on the processing

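The number of genes called between litter 1 and litters 2 and 4 depended on the model. It was 0 with sex alone, and also 0 with RLE size factors, library size alone, a mean of at least 50 counts, no sex term, libraries thinned to the smallest total, no mitochondrial genes, limma with litter as a random block, and limma on litter means. DESeq2 called 143, edgeR without a filter on low counts 614, and the fit with a term for each litter 808, or 1849 for litter 1 against litters 2, 3 and 4. Litter 1 against litter 2 alone gave 537 calls and against litter 4 alone 2631. An alternative chosen after seeing the data, a term for each litter over 6 libraries, gave 962, of which 803 were among the 808. Leaving out 1 library gave between 0 and 51 calls: 39 without the male and 51 without the female of litter 2, and 0 without any other.

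For the male difference read in females, the percent of genes with the same direction, over both directions, was 69.4%, against 75.76% with a prior count of 5 and 81.06% with a mean of at least 50 counts. The median of the G2/M list ran from 0.63 to 1.00 over fits of litter 1 against 1 or both of litters 2 and 4, and was 1.37 against litters 2, 3 and 4. Of 4398 values for 210 named genes, 136 changed sign without a call, and 9 reversed. Against litter 4 alone these were Cav1 at 0.39, Fabp4 at 0.68, Cdh5 at 0.48 and Col4a1 at 0.27. Against litters 2, 3 and 4 they were Acta2 at 0.34, Jun at -0.35, Col4a1 at 0.23, Col3a1 at 0.48 and Kcne1 at 0.27. The cause was not tested. Litter 1 is 1 litter, so no fit measures the spread between litters like it, and low counts limit the least expressed genes. No paired analysis was possible because the groups compared are whole litters, and sex, the only label that matches pups across litters, was a term of the fit.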

Other observations

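In the list of integrated and ER stress, 3 of 21 tested genes were called higher (3.59% of all genes were), 0 lower, and the median log2 difference was -0.09. Psat1, an enzyme of serine synthesis, was at 20.4 and 19.7 CPM in litter 1, 13.4 and 11.6 in litter 2, and 16.9 and 10.9 in litter 4. Mthfd2, of mitochondrial folate metabolism, was at 5.71 and 5.33 CPM in litter 1 and between 2.41 and 3.87 in the others, and Asns, which makes asparagine, at 3.498 and 4.59 CPM against 1.56 to 2.74. These 3 were the called genes. Phgdh, also of serine synthesis, lay higher without overlap and was not called, and the groups overlapped for Shmt2, Atf4 and Hspa5.

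Heat shock genes differed in direction. Hsp90aa1, the inducible HSP90, was at 146.3 and 137.4 CPM in litter 1 and between 94.3 and 125.9 in the others, though 47.5% of its transcript windows are shared with other genes. Hsp90ab1, the constitutive form, was at 1022 and 1006 CPM in litter 1 and between 1143 and 1465 in the others. Gstm1, a glutathione transferase, was at 23.5 and 25.3 CPM in litter 1 and between 30.7 and 37.4 in the others. Itga1, an integrin that binds collagen and laminin, was at 43.8 and 47.6 CPM in litter 1, 37.6 and 28.8 in litter 2, and 28.7 and 20.7 in litter 4.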
